A study of Mus musculus with 18 samples.

Results

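The genes described here encode the proteins of the cytosolic ribosome, and their RNA was read in nuclear and in whole cell lysates of Neuro2A cells. Members were chosen by name: a locus was taken if 1 of its symbols was *Rpsa*, *Rplp0*, *Rplp1*, *Rplp2*, or *Rps* or *Rpl* followed by a number and at most 1 letter a, x or l, leaving out kinases, binding proteins and symbols that end in -ps. *Rps4l* and *Rpl6l*, which GENCODE M21 annotates as processed pseudogenes, have no such ending and were kept. The rule used no measured value. It found 82 loci with 81 symbols among 52179 loci with a symbol, 32 for the small subunit and 50 for the large subunit, and 78 of them (32 and 46) had a mean of at least 10 normalized counts and were tested. *Rpl6l*, *Rpl10l* and both loci of *Rpl3l* stayed below that level.

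Neuro2A (N2A) is a mouse neuroblastoma cell line, labelled as wild type in every sample. Cells received 25 nM of a biotin-tagged *miR-92b* mimic, 25 nM of a biotin-tagged scramble RNA (Scr), or no small RNA (control). The study describes a streptavidin pulldown of RNA from a lysate of purified nuclei or of whole cells before poly(A) RNA was sequenced. Each of the 6 groups held 3 samples. All samples share the line. The study names the pulldown for the Scr and *miR-92b* samples, and the control samples hold no biotin-tagged RNA. If control lysates were also put on the beads, what was read there is RNA that stayed on them without a mimic. The labels do not say whether the 3 samples of a group came from separate cultures, although the study describes checks of the pulldown as repeated experiments, and the p-values measure the spread between these samples, which may be partly technical. Of 8 marker genes of sympathetic neuroblastoma, 7 were high enough to test and 1 had no reads in any of the 18 samples, and together they took 0.0496 to 0.0604% of the nuclear and 0.0443 to 0.0574% of the whole cell reads. Of 3 blood genes, 2 had no reads in any sample and none was high enough to test.

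A cytosolic ribosome joins a small subunit, which decodes the mRNA, to a large subunit, which forms the peptide bond and holds the stalk where translation factors dock. The mRNAs for its proteins are short, abundant and stable, most begin with a run of pyrimidines (the 5′ TOP motif) that couples their translation to growth signals, and they are translated in the cytoplasm before the proteins travel back to the nucleolus to be built into subunits. Many of the genes also carry snoRNAs in their introns. RNA in a nuclear lysate is a mixture of new transcripts, transcripts being spliced and RNA that stays in the nucleus, and in bulk RNA of this kind fewer cells of a type and less RNA per cell cannot be told apart.

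The libraries held between 3752991 and 22920038 reads on loci with a symbol, and between 18251 and 675373 reads fell on the members. Of 7 nuclear RNAs used as markers 5 were tested, and 4 of them, *Malat1* among them, were higher in nuclear lysate over the 3 treatments. The same number was called in control and in *miR-92b*, but 0 in Scr. The list took 2.47 to 3.19% of the nuclear and 0.591 to 1.71% of the whole cell reads, and loci of the mitochondrial genome took 0.0268 to 0.485% and 2.14 to 7.15%. 3 libraries stood apart. Whole cell *miR-92b* replicate 3 had 7.15% mitochondrial reads against 2.14 and 2.16% in its group, and nuclear Scr replicates 2 and 3 had 0.237 and 0.485% against 0.0514% in replicate 1. The same 3 libraries had the largest shares of reads on the members in their compartment, and the part of this in the results was not tested.

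The members took a smaller share of the reads in nuclear than in whole cell lysate in all 3 treatments. In nuclear control they held 0.472, 0.465 and 0.644% of the reads on loci with a symbol, in nuclear Scr 0.486, 0.782 and 0.930%, and in nuclear *miR-92b* 0.529, 0.568 and 0.592%. In whole cell control they held 3.22, 2.84 and 3.74%, in whole cell Scr 2.17, 2.06 and 2.95%, and in whole cell *miR-92b* 2.41, 1.77 and 5.89%. No nuclear sample reached the lowest whole cell sample, and the highest nuclear and whole cell values were those of the libraries that stood apart. Small subunit genes gave 37.7 to 41.3% of the member reads over all 18 samples, so the split between the subunits changed little while the total moved with the compartment. Loci named as ribosomal protein pseudogenes, which can share reads with the genes they were copied from, held 0.0285 to 0.0626% of the reads.

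**Figure D1:**
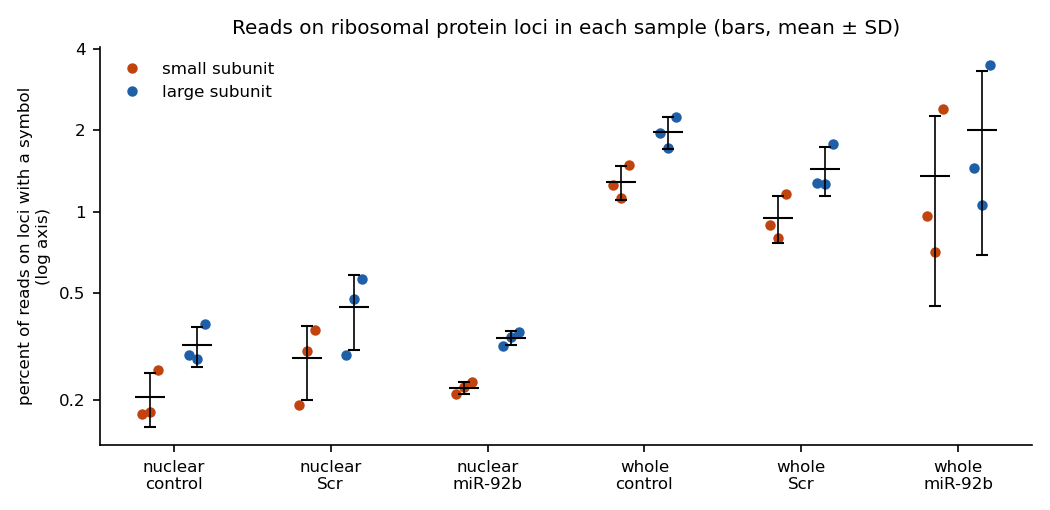
Percent of reads on small subunit (orange) and large subunit (blue) ribosomal protein loci in each of the 18 samples, on a log axis, with the mean ± SD of each group of 3 as black bars. Every nuclear sample lies below every whole cell sample for both subunits, and whole cell miR-92b replicate 3 is the highest.

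Levels were compared between genes as FPKM, which divides by transcript length. In whole cell lysate the median member was at 259 to 1042 FPKM per sample, and in nuclear lysate at 32.6 to 110 FPKM. The medians of the 2 subunits were close in each compartment: over the 9 whole cell samples they averaged 485 ± 288 FPKM (SD, n = 9) for the small and 423 ± 197 FPKM for the large subunit, and over the 9 nuclear samples 53.5 ± 26.2 and 57.8 ± 25.7 FPKM. *Rpl41*, the shortest ribosomal protein, ranked first in both compartments, at 76.3 to 398 (median 127) FPKM in nuclear and 992 to 4294 (median 1735) FPKM in whole cell samples. In whole cell lysate it was followed by *Rps12*, *Rplp1* and *Rps2*, with medians of 1193, 1063 and 1014 FPKM, and the ranges of these 4 genes overlapped.

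The order of the members differed between the compartments. *Rpl10a*, the protein of the mobile L1 stalk that releases tRNA, had rank 2 of 78 in nuclear lysate at 148 to 194 (median 162) FPKM but rank 46 in whole cell lysate at 267 to 892 (median 343) FPKM. *Rpl5*, which carries 5S rRNA to the large subunit, had ranks 8 and 34, and *Rpl6* 13 and 48. Moving the other way, *Rps16*, whose tail touches the tRNA in the P site, had rank 61 in nuclear and 23 in whole cell lysate, and *Rps21* 73 and 54. Across the 78 genes, which share libraries and are not independent, the mean nuclear and whole cell log2 FPKM were correlated with Pearson r = 0.85 and Spearman rho = 0.79.

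The main comparison asked which members differed between nuclear and whole cell lysate, averaged over the 3 treatments. All tested loci with a symbol (15579) were fitted in 1 model, and a locus was called at an adjusted p below 0.05. Of the 78 tested members, 75 were lower in nuclear lysate, 31 of 32 in the small and 44 of 46 in the large subunit, and none was higher. For comparison, 15.8% of all tested loci were called lower and 15.3% higher. The median member difference was -2.34 on the log2 scale, a 5.08-fold lower level, whereas the median over all tested loci was 0.14. In 67 of 78 members all 9 nuclear samples lay below all 9 whole cell samples, which was so for 4.4% of all tested loci, while no member had all 9 nuclear samples above, which was so for 2.91%. 51 members were below -2 and 14 below -3 on the log2 scale, beside 3.31 and 0.764% of all tested loci. The median was -2.25 for the small and -2.41 for the large subunit, and the quartiles overlapped almost fully, at -2.88 to -1.85 and -2.85 to -1.83. With FPKM in place of counts the small subunit had the lower median (-3.21 against -3.00), so the data give no stable order of the subunits.

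**Figure D2:**
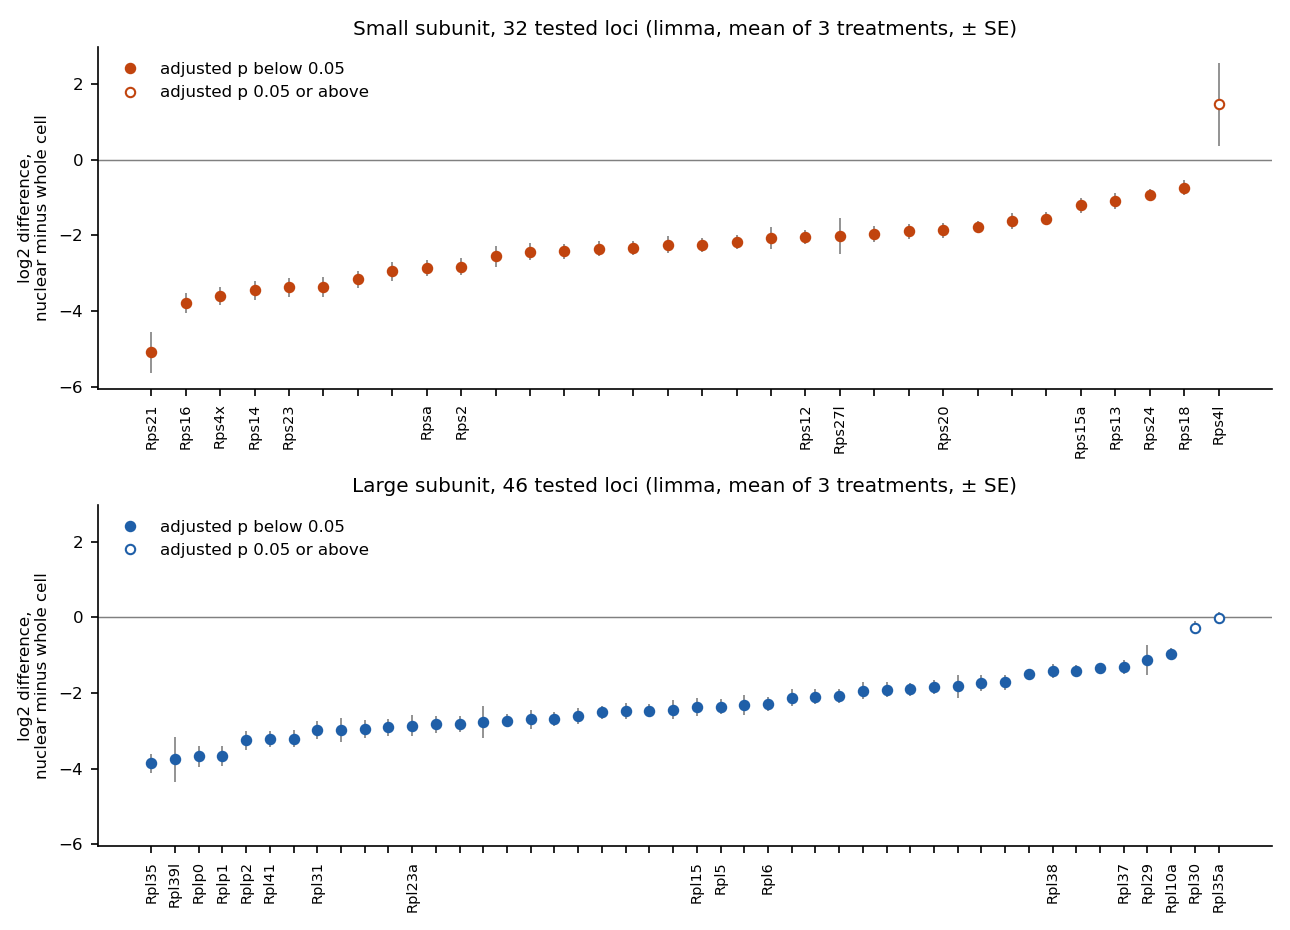
Log2 difference of normalized counts, nuclear minus whole cell, with its SE from limma over the 3 treatments, for the 32 small subunit (top) and 46 large subunit loci (bottom) in order of the difference. Filled points have an adjusted p below 0.05, open points do not: Rps4l, Rpl30 and Rpl35a are the open ones, and the rest lie below 0. Genes described in the text are labelled.

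Among the small subunit genes, *Rps21* (GRCm38, chr2:180257377-180258445, plus strand) had the lowest nuclear level relative to the whole cell level. It was read at 15.9, 16.1 and 3.16 normalized counts in nuclear control, 21.3, 0 and 0 in nuclear Scr and 32.8, 42.8 and 29.6 in nuclear *miR-92b*, and at 302, 329 and 548 in whole cell control, 361, 260.2 and 399 in whole cell Scr and 222, 197 and 842 in whole cell *miR-92b*. The highest nuclear sample was at 42.8 and the lowest whole cell sample at 197 normalized counts. The log2 difference (± SE, with the Benjamini-Hochberg adjusted p of limma, here and below) was -5.10 ± 0.55, adjusted p = 1.82e-07, and since 2 nuclear Scr libraries had no read of it this value depends on the pseudocount of 1. *Rps16* was at 133, 94.1 and 153 normalized counts in nuclear control, 117, 457 and 622 in nuclear Scr and 175, 217 and 225 in nuclear *miR-92b*. In whole cell lysate it was at 3462, 2813 and 3994 in control, 1756, 1853 and 2829.8 in Scr and 2781, 1441 and 7551 in *miR-92b*. The lowest whole cell value was 1441 and the highest nuclear value 622, and the log2 difference was -3.79 ± 0.27, adjusted p = 3.48e-10. *Rps4x*, the X-linked gene for S4, ranged over 244 to 939 (median 355) normalized counts in the nuclear and 2492 to 13467 (median 4207) in the whole cell samples (-3.60 ± 0.24, adjusted p = 1.49e-10). *Rps14*, a protein of the platform near the mRNA exit whose loss underlies the anaemia of 5q deletion, ranged over 87.4 to 483 (median 147) and 1107 to 4326 (median 1721) (-3.46 ± 0.26, adjusted p = 5.87e-10).

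The small subunit genes with the highest FPKM had intermediate differences. *Rps2*, a protein of the mRNA entry side, was at 672, 669.6 and 1020.4 normalized counts in nuclear control and 8178, 7168 and 9495 in whole cell control. In the nuclear groups that received RNA it was at 879, 1976 and 2588 (Scr) and 705, 838 and 959 (*miR-92b*), with Scr replicates 2 and 3 above the rest, and its whole cell values were 6163, 4735 and 7208 (Scr) and 6894, 3874 and 17064 (*miR-92b*). The groups did not overlap, and the log2 difference was -2.83 ± 0.22, adjusted p = 8.57e-10. *Rps12*, which hosts 3 snoRNA genes, ranged over 680.3 to 1125 (median 757) and 2042 to 7864 (median 2998) normalized counts (-2.04 ± 0.18, adjusted p = 5.87e-09). *Rpsa*, known also as the laminin receptor precursor, ranged over 487 to 1369 (median 692) and 3106 to 11963 (median 4867) (-2.86 ± 0.21, adjusted p = 5.67e-10).

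At the other end of the small subunit, *Rps24*, mutated in some patients with Diamond-Blackfan anaemia, had one of the smaller differences in counts, though not in FPKM (-3.29 on the log2 scale). It was at 1178, 1042 and 1618 normalized counts in nuclear control, 1266, 1870.2 and 1624 in nuclear Scr and 1206, 1224 and 1274 in nuclear *miR-92b*, against 2873, 2575 and 3173 in whole cell control, 1835, 2494 and 2966 in whole cell Scr and 1924, 1793 and 4704 in whole cell *miR-92b*. Scr overlapped between the compartments, and the log2 difference was -0.94 ± 0.15, adjusted p = 6.01e-05. *Rps18*, part of a bridge between the subunits, ranged over 209 to 351 (median 235) and 224 to 963 (median 386) normalized counts, with overlapping compartments and a log2 difference of -0.74 ± 0.20, adjusted p = 0.00563. *Rps13* ranged over 227 to 474 (median 322) and 269.9 to 1247 (median 728) (-1.09 ± 0.20, adjusted p = 2.46e-04). The other small subunit loci reported here, except *Rps4l*, lay between -3.37 (*Rps23*) and -1.21 (*Rps15a*).

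In the large subunit, 2 of the 4 lowest differences belonged to the stalk, the flexible arm of *Rplp0* and paired *Rplp1* and *Rplp2* that recruits translation factors. *Rplp0* (chr5:115559467-115563727, plus strand) was at 310.5, 411 and 805 normalized counts in nuclear control, 452, 1732 and 1533 in nuclear Scr and 438, 554 and 657 in nuclear *miR-92b*. Its whole cell values were 10414, 8286 and 11859 in control, 6496, 5655 and 9573 in Scr and 6369, 3677 and 21059 in *miR-92b*. The highest nuclear value, in Scr replicate 2, was below the lowest whole cell value, and the log2 difference was -3.67 ± 0.27, adjusted p = 5.67e-10. *Rplp1* ranged over 60.7 to 484 (median 187) and 1254 to 5693 (median 2092) normalized counts (-3.66 ± 0.27, adjusted p = 5.30e-10), and *Rplp2* over 109 to 496 (median 175) and 862 to 4058 (median 1805) (-3.25 ± 0.24, adjusted p = 6.68e-10). The 3 stalk genes thus stood at places 5, 6 and 11 of 78 in the order of the difference.

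*Rpl35* (chr2:39001580-39005624, minus strand), a protein at the exit of the peptide tunnel, had the lowest value of the large subunit. It was at 72.2, 88.7 and 111 normalized counts in nuclear control, 73.1, 357 and 289 in nuclear Scr and 72.4, 112 and 122 in nuclear *miR-92b*, and at 1951, 1916 and 2111 in whole cell control, 1172, 1310.3 and 1924 in whole cell Scr and 1492, 1171 and 3871 in whole cell *miR-92b*. The compartments did not overlap (-3.85 ± 0.25, adjusted p = 1.44e-10). *Rpl41*, the large subunit gene with the highest FPKM, ranged over 212 to 916 (median 300.1) normalized counts in nuclear and 2073 to 8501 (median 3089.8) in whole cell lysate (-3.21 ± 0.22, adjusted p = 2.17e-10).

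The large subunit also held the members with the smallest differences. *Rpl35a* (chr16:33056453-33060189, plus strand), another gene mutated in Diamond-Blackfan anaemia, was at 557, 585 and 959 normalized counts in nuclear control, 661, 750.4 and 589 in nuclear Scr and 732, 471 and 602 in nuclear *miR-92b*. The whole cell values were 711, 589.7 and 731 in control, 436, 782 and 833 in Scr and 562, 479.8 and 837 in *miR-92b*, and the compartments overlapped throughout. Its log2 difference of -0.01 ± 0.15, adjusted p = 0.981 was within the spread of the samples, with a sign that turned under other scalings, although FPKM gave a called deficit, described further on. *Rpl30*, which in yeast binds its own transcript, ranged over 575 to 1082 (median 699) and 593 to 1621 (median 861) normalized counts (-0.27 ± 0.18, adjusted p = 0.249). *Rpl10a* was lower in nuclear lysate by a smaller margin, at 906 to 1394 (median 1099) against 1623 to 4801 (median 1995) (-0.97 ± 0.15, adjusted p = 2.52e-05). *Rpl29* was read at 17.7 to 82.3 (median 63.2) and 37.1 to 251 (median 139) (-1.13 ± 0.39, adjusted p = 0.0306), and this call was lost in 7 of 18 fits that left out 1 sample. The other large subunit loci reported here, except *Rpl39l*, lay between -2.98 (*Rpl31*) and -1.32 (*Rpl37*).

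**Figure D3:**
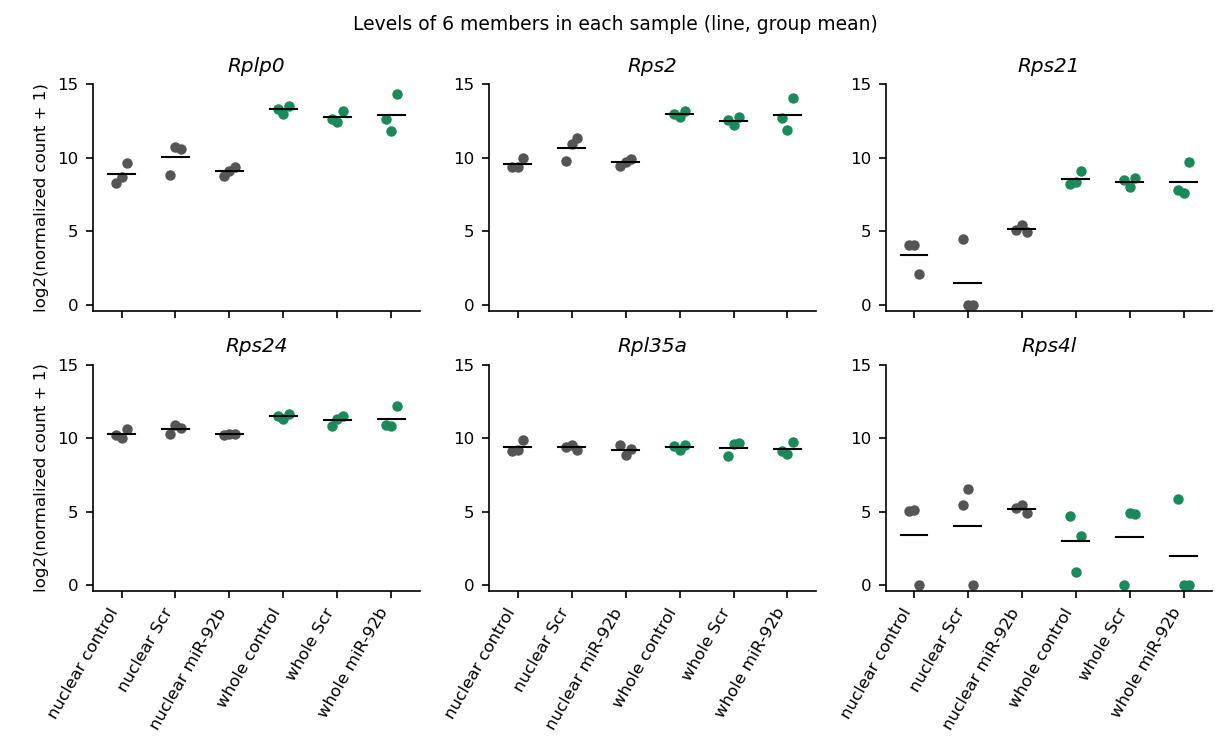
Log2(normalized count + 1) of 6 members in each sample, 3 nuclear groups (grey) and 3 whole cell groups (green), with a line at each group mean. Rplp0, Rps2 and Rps21 lie lower in every nuclear sample, Rps24 differs less, Rpl35a overlaps throughout, and Rps4l has samples without reads in both compartments.

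The paralogs of ribosomal protein genes, most of them best known from single tissues, differed from each other. *Rps27l*, a p53 target, was at 17.3, 8.07 and 42.7 normalized counts in nuclear control, 10.7, 149.6 and 24.0 in nuclear Scr and 35.5, 35.7 and 41.2 in nuclear *miR-92b*, against 71.0 to 242 (median 107) in whole cell lysate. Only nuclear Scr replicate 2 entered the whole cell range (-2.01 ± 0.48, adjusted p = 0.00232). *Rpl39l*, known from the testis, ranged over 0 to 35.7 (median 9.41) and 38.5 to 263 (median 133) (-3.75 ± 0.59, adjusted p = 3.34e-05). *Rps4l*, annotated as a transcribed processed pseudogene of 943 bases at chr6:148354656-148355598, plus strand, was the only member above 0. It had no reads in 2 nuclear and 3 whole cell samples and ranged up to 93.2 and 56.7 normalized counts, and its log2 difference of 1.46 ± 1.10, adjusted p = 0.326 was within the spread of the samples. Reads of such a copy can be shared with *Rps4x*, so its level is uncertain. *Rpl10l*, a testis gene, had no reads in any sample, and the muscle gene *Rpl3l* was above 0 in 1 sample at 1 locus and in 2 samples at the other.

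The same comparison was then made within each treatment. In control, 72 of 78 members were lower in nuclear lysate, beside 6.91% of all tested loci (9.85% in either direction), with a median of -2.75. In Scr, 61 were lower, beside 3.7% of all tested loci (5.17% in either direction), with a median of -1.83. In *miR-92b*, 72 were lower, beside 6.63%, with a median of -2.44. None was higher in any treatment, where 2.94, 1.46 and 6.66% of all tested loci were. The 3 nuclear samples lay below the 3 whole cell samples in 74 members in control, 70 in Scr and 73 in *miR-92b*, beside 19.4, 11.6 and 16.5% of all tested loci. The medians over all tested loci were 0.06, 0.01 and 0.26, respectively. The 2 subunits were close within each treatment: small against large, the medians were -2.69 and -2.81 in control, -1.84 and -1.83 in Scr, and -2.28 and -2.51 in *miR-92b*. *Rpl30*, *Rpl35a*, *Rpl29* and *Rps4l* failed the test in all 3 treatments.

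The smaller differences in Scr came with more mitochondrial reads in nuclear Scr replicates 2 and 3. They also came with member levels in whole cell Scr that were mostly below those of whole cell control. None of the 5 tested nuclear marker RNAs was called in Scr. The median member difference of Scr minus control was 0.44 in nuclear lysate, with 69 of 78 above 0, and -0.46 in whole cell lysate, with 75 of 78 below 0, and limma called no locus (0.0%) in either, with 15 and 5 members and 916 and 793 loci at an unadjusted p below 0.05. Nuclear Scr replicates 2 and 3 had 0.237 and 0.485% mitochondrial and 0.782 and 0.930% member reads, while replicate 1 had 0.0514 and 0.486%. The Scr median of -1.83 was -1.97 without nuclear Scr replicate 2, -2.02 without replicate 3 and -1.49 without replicate 1, beside -2.75 in control. Without whole cell Scr replicates 1, 2 and 3 it was -1.87, -1.94 and -1.66. The *miR-92b* median of -2.44 was -2.64, -2.82 and -1.87 without whole cell *miR-92b* replicates 1, 2 and 3, the last close to that of Scr. *Rplp0* differed by -4.42 ± 0.47 in control, -2.73 ± 0.47 in Scr and -3.86 ± 0.47 in *miR-92b*, and *Rps16* by -4.76 ± 0.47, -2.70 ± 0.47 and -3.92 ± 0.47. *Rps21* had its lowest value in Scr, at -5.16 ± 0.95, -6.90 ± 0.95 and -3.23 ± 0.95. Its nuclear Scr libraries were at 21.3, 0 and 0 normalized counts, so the size of the Scr value depends on the pseudocount of 1. The part of the libraries in this pattern was not tested.

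A test of the difference itself called no member. For Scr minus control the nuclear minus whole cell difference was less negative in 75 of 78 members, with a median of 0.89 beside -0.01 over all loci. 24 members and 823 of 15579 loci had an unadjusted p below 0.05, the lowest adjusted p of a member was 0.886 with limma, and no locus was called. For *miR-92b* minus Scr the median was -0.68 beside 0.18 over all loci, 8 members and 1123 loci had an unadjusted p below 0.05, and the lowest adjusted p of a member was 0.683 (limma). 1 locus, beside 0.00642% as background, was called, and it was no member. edgeR and DESeq2 on the recovered reads called no member in either test. Without whole cell *miR-92b* replicate 3 the median of the second test was -0.13 in place of -0.68, and it was -1.02 without nuclear Scr replicate 1 and -1.01 without whole cell *miR-92b* replicate 2. Across the members the order of the differences was similar between treatments, with Spearman rho of 0.88 for control and Scr, 0.94 for control and *miR-92b* and 0.86 for Scr and *miR-92b* over 78 loci that share their libraries.

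**Figure D4:**
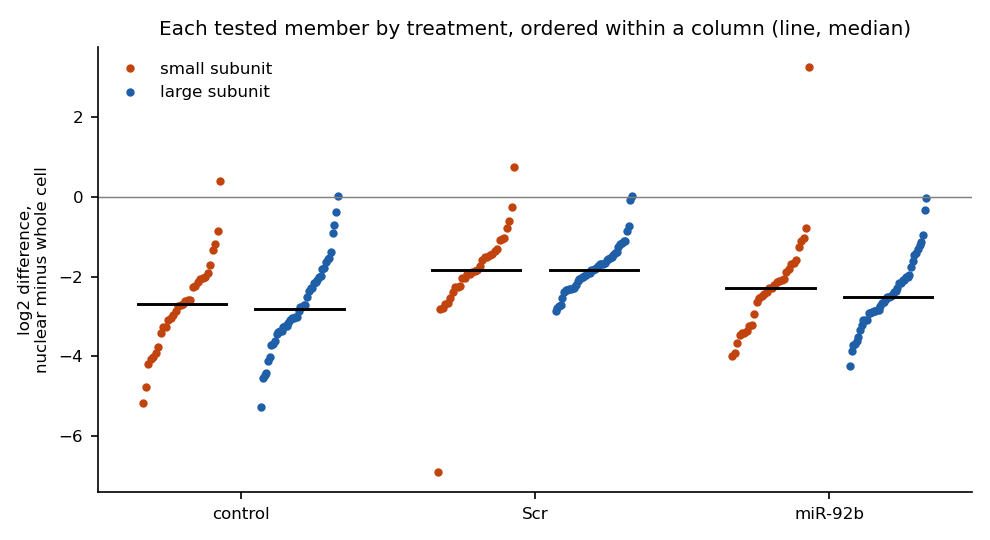
Log2 difference, nuclear minus whole cell, of each tested small subunit (orange, 32) and large subunit (blue, 46) locus in control, Scr and miR-92b samples, ordered by value within a column, with a line at the median. The medians lie at -2.69 and -2.81 in control, -1.84 and -1.83 in Scr, and -2.28 and -2.51 in miR-92b.

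The pulldown was made to find RNAs bound by *miR-92b*, so the members were searched for its seed match. The mature mmu-miR-92b-3p (RefSeq, GRCm38.p6, chr3:89227126-89227147, minus strand) is shown with its seed, bases 2 to 8, in capitals.
mmu-miR-92b-3p: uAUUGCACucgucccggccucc
The 7 bases that pair with the seed, GTGCAAT, occurred in the 3′ UTR of 2 of 77 tested members with a GENCODE M21 coding model (2.60%) and in the coding sequence of none. Among 10590 tested loci with 1 symbol the shares were 6.98 and 5.70%. The median 3′ UTR was 89 bases in the members and 994 bases in those loci. Both matches, in *Rpl15* and *Rps20*, were followed by an A, and they are shown with the match in capitals and the gene strand as read.
Rpl15: tagaagttaaGTGCAATaattgaaaac
Rps20: catataaataGTGCAATaaaaattaac
*Rpl15* lies at chr14:18267823-18271391, minus strand, with the match at bases 862 to 868 of a coding model of 1922 bases. *Rps20* lies at chr4:3831334-3835665, minus strand, with the match at bases 3674 to 3680 of a coding model of 3706 bases, the only coding model of the gene in GENCODE M21. *Rpl15*, an early protein of the large subunit, was at 299, 656 and 726 normalized counts in nuclear Scr and 295, 351 and 349 in nuclear *miR-92b*, a log2 difference of -0.66 ± 0.40, adjusted p = 0.999964. In whole cell lysate it was at 1104, 1354 and 2398 in Scr and 1727, 1435 and 5305 in *miR-92b* (0.62 ± 0.40, adjusted p = 0.633). *Rps20*, a protein of the head of the small subunit, was at 329, 424 and 575 in nuclear Scr and 421, 359.6 and 287 in nuclear *miR-92b* (-0.29 ± 0.33, adjusted p = 0.999964). Its whole cell values were 1015, 1161 and 1367 in Scr and 1092, 997 and 3283 in *miR-92b* (0.38 ± 0.33, adjusted p = 0.741). The *miR-92b* and Scr samples of both genes overlapped in both lysates.

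No member was called between *miR-92b* and Scr. In nuclear lysate limma called 0 of 15579 loci (0.0%), 5 members and 687 loci had an unadjusted p below 0.05, and edgeR and DESeq2 called no member. The median member difference was -0.31, with 65 of 78 below 0, beside 0.11 over all loci, and it ranged from -0.67 without Scr replicate 1 to -0.11 without Scr replicate 3. Leaving out nuclear Scr replicate 1 gave 49 called loci, 3 of them members, *Rps21* and, in the other direction, *Rpl23a* and *Rpl35*, and nuclear Scr was then represented by the 2 libraries with more mitochondrial reads. *Rps21* had the lowest unadjusted p, being at 21.3, 0 and 0 normalized counts in nuclear Scr and 32.8, 42.8 and 29.6 in nuclear *miR-92b* (3.66 ± 0.95, adjusted p = 0.999964). In whole cell lysate 1 locus was called (0.00642%), which was no member, and 2 members and 1515 loci had an unadjusted p below 0.05. The median was 0.36, with 72 of 78 members above 0, and it became -0.19, with 70 of 78 below 0, without *miR-92b* replicate 3.

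Counts and FPKM gave different sizes for the nuclear deficit. On FPKM 77 of 78 members were lower in nuclear lysate, beside 16.1% of all tested loci, with a median of -3.07, whereas counts gave 75 and -2.34. The normalized count per FPKM rises with the length that Cufflinks gives to the transcripts behind the reads. It was higher in nuclear than in whole cell lysate for 69 of 78 members, by a median of 0.41 on the log2 scale (1.33-fold), relative to the median locus of each sample. Over 15168 loci with values in every sample it was higher for 6741, with a median of -0.03. The shift was 0.53 in the small and 0.36 in the large subunit. Among the 5 members with a count difference between -1 and 0, the shift was 2.25 in *Rps24*, 2.18 in *Rpl35a*, 1.34 in *Rpl30*, 0.61 in *Rps18* and 0.14 in *Rpl10a*. *Rpl35a* was at 26.6 to 71.8 (median 36.5) FPKM in nuclear and 107 to 361 (median 195) FPKM in whole cell samples, with no overlap, and its FPKM difference was -2.28 ± 0.22, adjusted p = 2.71e-06 where its counts gave -0.01. *Rpl30* likewise was at -1.70 ± 0.26, adjusted p = 1.71e-04 on FPKM. *Rps24* had an FPKM difference of -3.29 ± 0.30 beside -0.94 in counts, *Rpl38* -3.75 ± 0.43 beside -1.42, and *Rps12* -3.91 ± 0.29 beside -2.04. In *Rps4l*, *Rps21* and *Rplp0* the 2 scales differed by less than 1. Which transcripts were behind the nuclear reads was not tested, since the tables hold 1 value for each locus.

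**Figure D5:**
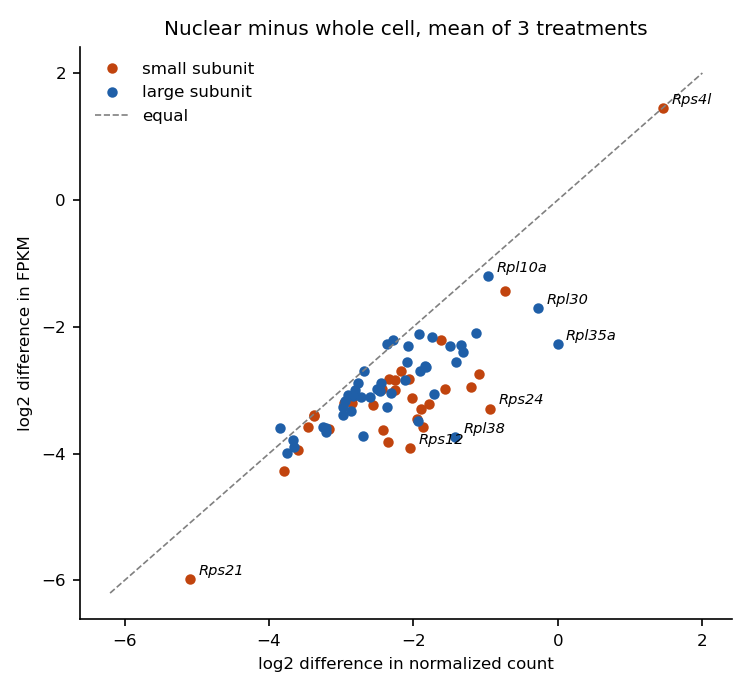
Log2 difference, nuclear minus whole cell over the 3 treatments, from FPKM (vertical) against the same from normalized counts (horizontal) for small subunit (orange) and large subunit (blue) loci, with a dashed line where both are equal. Most loci lie on or below the line, and Rpl35a, Rps24 and Rpl38 lie farthest below it.

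Other properties of the genes were set beside the difference. The 28 tested members with a snoRNA gene inside had a median of -2.31 and the 50 without one -2.36. Of these, 27 and 48 were called lower, beside 15.8% of all tested loci. Across members the difference was weakly related to spliced length (Spearman rho = -0.15, 77 loci) and number of exons (rho = -0.01). It was lower in genes with more whole cell FPKM (rho = -0.45, 78 loci), a measure that shares the whole cell values with the difference. The strongest of these relations was with the shift in normalized count per FPKM (rho = 0.68, 78 loci). Genes with a larger shift had a less negative difference, and the shift shares its counts with the difference. The members had a median spliced length of 775 bases and 5 exons, against 3034 bases and 9 exons in the 10590 loci with 1 symbol. 31 of the 78 loci joined a member with another symbol, mostly a snoRNA or a small predicted gene. 30 of them were called lower, beside the same 15.8% of all tested loci. Their median was -2.12, beside -2.43 in the 47 loci with the member alone.

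RefSeq promoter windows (GRCm38.p6, 250 bases before to 50 after a start site) were matched by symbol for 57 of the 78 tested members, in 68 windows. They describe the genes, and a relation of the promoters to the nuclear level was not tested. The background is all RefSeq windows, of tested and untested genes alike. CCGGAAG, the core of ETS sites, searched on both strands, occurred in 38.2% of the member windows and in 8.86% of all 32851 windows. On the gene strand CTTTCC occurred in 41.2% of the member windows and 14.1% of all, CTCTTTC in 22.1 and 3.99%, and TATAAA, the TATA box, in 7.35 and 8.32%; CTTTCC and CTCTTTC can overlap each other in 1 pyrimidine run. A match describes the letters and not a bound factor. For members at places 1, 12, 21 and 75 in the order of differences, 30 bases of the gene strand are given 5′ to 3′ with the match, or its reverse complement, in capitals.
Rps21, chr2:180257280-180257309, plus strand: ctttctttgcaCCGGAAGcggaagttaaaa
Rpsa, chr9:120127567-120127596, plus strand: cgccccagctaCTTCCGGcctggggtctgt
Rpl41, chr10:128549206-128549235, minus strand: tagtaaggcagCCGGAAGtcgctgtctcga
Rps18, chr17:33955722-33955751, minus strand: agaagcaatttCCGGAAGtggacctccggg
The match lies 88 and 188 bases before the RefSeq start site (the nearer of 2 for *Rps21*) in *Rps21* and *Rpsa*, 56 in *Rpl41* and 75 in *Rps18*, counted to its first base on the gene strand. The 30 bases printed for *Rps21* and *Rpsa* also lie before the GENCODE M21 gene, while the GENCODE genes of *Rpl41* and *Rps18* start farther upstream and include the bases printed. The differences were -5.10 for *Rps21*, -2.86 for *Rpsa*, -3.21 for *Rpl41* and -0.74 for *Rps18*.

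Genes related to the ribosome but outside the name rule were counted with the same fit. Of 18 other TOP mRNAs and ubiquitin fusion genes, 16 were lower in nuclear lysate and none was higher, beside 15.8 and 15.3% of all tested loci, and the median was -1.93. *Eef1a1*, which brings aminoacyl-tRNA to the ribosome, averaged 1941 ± 737 normalized counts (SD, n = 3) in nuclear control and 34028 ± 6571 in whole cell control (-3.53 ± 0.24, adjusted p = 2.29e-10). *Fau*, whose product is cleaved to a ribosomal protein of the small subunit, differed by -2.88 ± 0.29, adjusted p = 7.64e-08. *Eef1d* and *Eif3e* did not pass the test, at -0.15 ± 0.11, adjusted p = 0.347, and -0.29 ± 0.12, adjusted p = 0.0702. Of 4 tested variants just outside the rule, 3 were lower, *Rps3a1* (-1.85 ± 0.19, adjusted p = 1.32e-07), *Rpl36al* (-2.55 ± 0.40, adjusted p = 3.24e-05) and *Rpl22l1* (-1.24 ± 0.30, adjusted p = 0.00248), while *Rpl7l1* was at -0.11 ± 0.15, adjusted p = 0.604.

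Ribosome assembly factors, which act on precursors in the nucleolus and cytoplasm, were counted beside them. Of 24 tested, 7 were lower in nuclear lysate and none was higher, beside the same 15.8 and 15.3% of all tested loci, and the median was -0.30. *Eif6*, which keeps the large subunit from joining too early, differed by -1.44 ± 0.28, adjusted p = 3.51e-04, and *Mrto4*, the assembly relative of *Rplp0*, by -1.22 ± 0.23, adjusted p = 2.49e-04. *Gnl3*, nucleostemin, was at 0.01 ± 0.11, adjusted p = 0.952. The share of reads on this list was 0.0919 to 0.104% in the nuclear and 0.101 to 0.128% in the whole cell samples. Of 5 cytoplasmic mRNAs used as markers, all were lower in nuclear lysate, with a median of -2.25, close to that of the members. The parts of the fractionation and of the pulldown in the members' values cannot be told apart from their place in the cell.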

How the data were processed

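RNA from nuclear and whole cell lysates, after the streptavidin pulldown that the study describes, was read in 18 samples, 3 in each of 6 groups. The authors trimmed reads with Trimmomatic 0.30 after bcl2fastq 2.17, aligned them to GRCm38/mm10 with TopHat2 and quantified loci with Cufflinks and Cuffdiff. For TopHat2, Cufflinks and the annotation no version was named in the labels or methods. The deposited count table holds the authors' normalized counts (a signal: reads divided by a size factor for each sample), and 99.953% of 635205 values above 0 gave whole reads within 0.02 reads when the factor was undone. The deposited FPKM table holds the authors' values per length and depth. A table of locus names (other) gave symbols. The deposited comparison files hold the authors' fold changes, p-values and q-values and were not used.

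Differences were tested two-sided with limma 3.58.1 (trend; R 4.3.3) on log2(normalized count + 1), in 1 model of 6 groups over 15579 loci with a symbol and a mean of at least 10, with Benjamini-Hochberg adjustment over all of them and a threshold of 0.05. Fold changes on this scale understate low genes. FPKM was tested alike with a pseudocount of 0.1. edgeR 4.0.16 and DESeq2 1.42.0 were run on the recovered reads. The limma fit on counts was tested on simulated data with known changes, for nuclear against whole cell in control only. Gene models came from GENCODE M21 (GRCm38), and sequences from RefSeq. No pair of libraries of the same group agreed within counting noise. TopHat2 and Cufflinks can share reads between a member and its pseudogenes, and 31 tested loci join a member with another symbol.

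The genes given in detail are, in each subunit, the 4 with the lowest and the 4 with the highest nuclear minus whole cell difference and the 3 with the highest mean FPKM, the stalk genes, *Rpsa*, the paralogs, and any member called between treatments. Some genes that this rule or a marker list holds are counted but not reported here by name. *Rpl15* and *Rps20* were added for their seed match, and *Rpl5*, *Rpl6*, *Rpl38*, *Rpl23a*, the 4 printed promoters and the ends of ranges were chosen after their values were seen. The members, lists and tests were chosen with earlier results of these data known.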

Additional observations from a re-analysis of the deposited data

How the results depend on the processing

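The direction of the nuclear deficit held with other pseudocounts, filters and scalings, the replicate block, edgeR, DESeq2, FPKM, and leaving out each sample. It also held with only the groups compared, a run made within each treatment and not for the mean of 3. *Rpl35a* was the exception among the members described. *Rps4l*, at 1.46 in the main fit, had no deficit to begin with. The number of members lower in nuclear lysate ranged over 74 to 75 for the mean of 3 treatments, 69 to 74 in control, 47 to 70 in Scr and 64 to 73 in *miR-92b* when 1 sample was left out. The low value of 47 in Scr came without whole cell Scr replicate 3, and the high value of 70 without whole cell *miR-92b* replicate 3, while the calls over all tested loci in either direction went from 805 to 386 and 1744. The median difference ranged over -2.48 to -2.16, and small minus large over 0.08 to 0.21. Members called between *miR-92b* and Scr in nuclear lysate ranged over 0 to 3. With loci of 1 symbol, where fewer loci are counted, 45, 42, 33 and 43 of 47 members were lower for the mean, control, Scr and *miR-92b*. In the main fit 15.8, 6.91, 3.7 and 6.63% of all tested loci were lower in these comparisons. Small minus large was 0.49 with loci of 1 symbol in place of 0.16. On FPKM the median was -3.07 and small minus large turned to -0.21, and the cause was not tested. *Rpl35a* was at 0.0821 with equal medians, 0.0049 with edgeR, 6.8e-06 with DESeq2 and -0.104 to 0.0707 without 1 sample. With replicate number as a block 75 members were lower. Deviations from the group mean were correlated at -0.044 to 0.109 over 45 same-numbered pairs of samples. Over 90 pairs with different numbers the range was -0.109 to 0.0665, and 9 of 18 samples were closest to one of their own number. Low correlations cannot exclude a shared culture, so whether the numbers pair the samples stays unknown. The lowest number of reads on the members was 18251, in nuclear Scr replicate 1. *Rps21*, *Rpl39l* and *Rps4l* had nuclear libraries without a read, though not that one.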
